A study of Oryza sativa with 21 samples.

Results

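SWEET proteins are membrane uniporters that let sugars leave or enter cells down a concentration gradient. In developing cereal grains no plasmodesmata join the mother plant to the endosperm, so sugar must be exported from maternal tissue and taken up again on the filial side. SWEETs take part in this route, as do proton-coupled sucrose transporters and invertases. Rice SWEET4 carries mainly hexoses, whereas SWEET11 to SWEET15 belong to the clade that carries mainly sucrose. SWEET11 and SWEET15 are known from rice genetics to be needed for grain filling, and SWEET11, SWEET13 and SWEET14 are also known as genes that bacterial blight strains switch on in leaves.

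Transcripts of 6 SWEET genes were followed in rice grains, chosen by their locus identifiers: SWEET4 (LOC_Os02g19820), SWEET11 (LOC_Os08g42350), SWEET12 (LOC_Os03g22590), SWEET13 (LOC_Os12g29220), SWEET14 (LOC_Os11g31190) and SWEET15 (LOC_Os02g30910). They are 6 of the 39217 genes in the count table. All 6 symbols were found in RefSeq on the chromosome that the identifier names. The grains came from paddy-grown plants of the cultivar ZH11 (labelled WT) and of the DRW1-OE lines OE1 and OE2, which overexpress DRW1, all sampled 3 days after pollination. Each group had 3 libraries. The labels do not give the promoter that drives DRW1 or whether the libraries of a group came from separate plants, so p-values measure the spread between these libraries, which may be technical. DRW1 itself is not analysed here, and each line is a single line.

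The libraries held 33237306 to 38117144 counts. Levels are given as CPM, the share of a library's counts on a gene rescaled to a fixed total, after TMM factors had aligned the bulk of genes between libraries. The factors ran from 1.28 to 1.29 for ZH11 libraries and from 0.863 to 0.907 for the lines. Without these factors the median change of all genes against ZH11 moved by −0.51 in OE1 and −0.56 in OE2 on the log2 scale, so each change below is relative to the bulk of genes. The threshold for a call was 0.05 on the adjusted p (Benjamini-Hochberg) of edgeR's quasi-likelihood test over 24765 genes. Calls were common: 67.7% of tested genes in OE1 against ZH11, 74.4% in OE2 against ZH11, 65.2% between the lines and 73.6% for the mean of both lines against ZH11. In grains, a marker list for endosperm summed to 23.3 to 26.0 CPM in ZH11 libraries, 55.7 to 59.4 in those of OE1 and 57.9 to 61.4 in those of OE2, and none of its 6 genes was at 0 in any group. In OE1 4 of these 6 rose and 2 fell, and in OE2 4 rose and 2 did not pass. A single gene, not the same one in both lines, made up most of each rise in the sum. With library totals in place of TMM factors 3 were higher and 2 lower in OE1, and 4 and 2 in OE2. Of the calls over all genes, 25.9% were then higher in OE1 and 29.8% in OE2. RefSeq held the symbol of only 1 of these 6 genes, and for the other 5 it was not found. Lists for floral organs (877 to 899, 640 to 648 and 700 to 755 CPM in the same order) and green tissue (250 to 258, 120 to 137 and 92.9 to 102 CPM) were present too, with lower sums in both lines. Of the 7 floral organ genes, 6 fell and 1 rose in OE1, and 4 fell, 2 rose and 1 did not pass in OE2. The ovule identity gene MADS13 was the one that rose in both lines (log2 changes of 0.21 and 0.49), but with library totals in place of TMM factors none of the 7 was called higher. The part of these tissue differences in the changes below was not tested. In whole grains, fewer cells of a type and less RNA per cell cannot be told apart.

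SWEET4 and SWEET15 rose in both lines, SWEET14 fell in both, SWEET13 moved in opposite directions and SWEET11 stayed level relative to the bulk of genes. SWEET12 was all but absent. Of the 5 genes with enough counts to test, 2 rose and 2 fell in OE1, 3 rose and 1 fell in OE2, and 1 did not pass in either line. The directional background was 33.9% higher and 33.8% lower over all tested genes for OE1, and 38.4% and 36% for OE2, so the counts do not set the SWEET genes apart. With library totals the same 5 genes gave 2 higher and 3 lower in OE1, and 3 and 2 in OE2. Over all 24765 tested genes that scaling gave 5115 higher and 14666 lower in OE1, and 6050 and 14233 in OE2. Between the lines 1 of the 5 was higher in OE1, 3 were lower and 1 did not pass, against 32.8% and 32.4% of all genes. The libraries of the groups did not overlap for 4 of the 5 genes in each of these 3 comparisons, where 71.8% (OE1 against ZH11), 77.7% (OE2 against ZH11) and 67.4% (OE1 against OE2) of all tested genes did not overlap. Their median log2 change was −0.01 in OE1 and 0.97 in OE2, against −0.03 and 0.01 for all tested genes. With so few genes these medians are the values of single genes, SWEET11 in OE1 and SWEET13 in OE2. With library totals they were −0.52 and 0.4, against −0.54 and −0.55 for all tested genes. Both comparisons use the same ZH11 libraries.

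**Figure D1:**
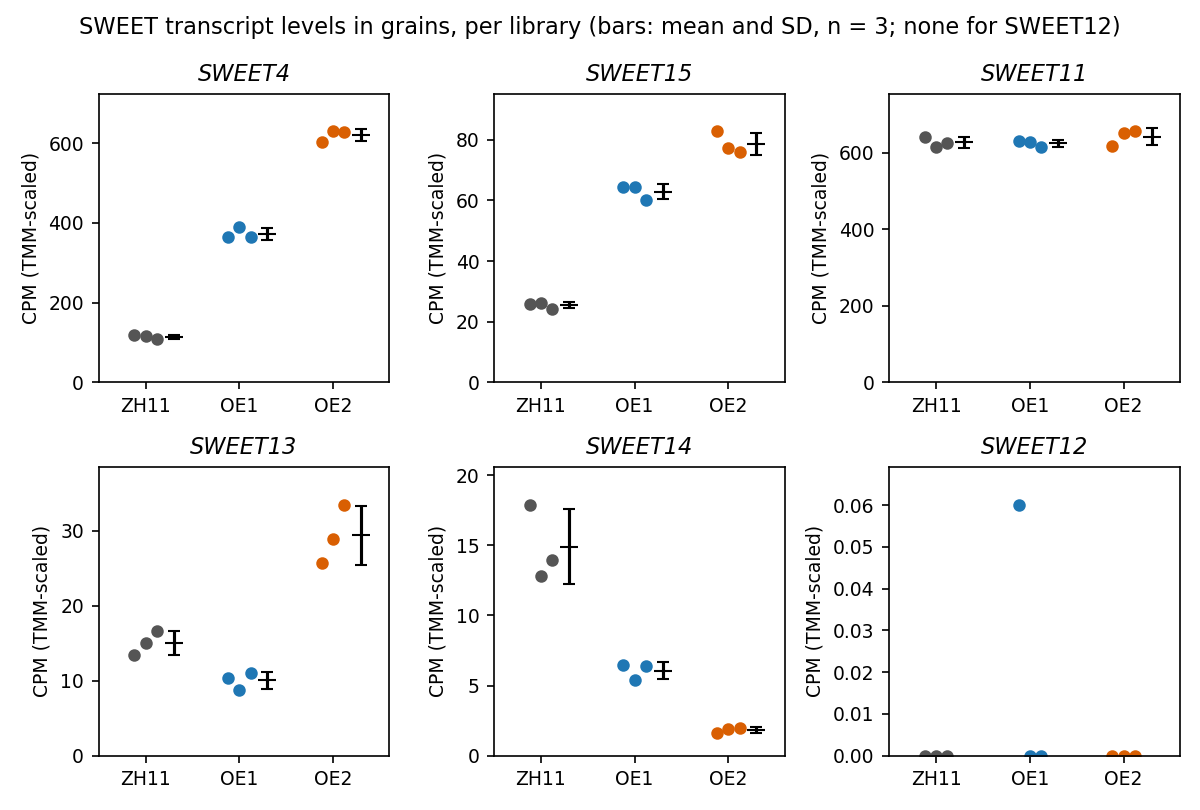
Transcript level (TMM-scaled CPM, linear axis from 0, a different range in each panel) of each SWEET gene in the 3 libraries of ZH11, OE1 and OE2, with the mean and SD beside the points except for SWEET12. SWEET4 and SWEET15 step up from ZH11 to OE1 to OE2, SWEET14 steps down, SWEET13 is lowest in OE1, and SWEET11 lies between 614 and 656 CPM in all 9 libraries.

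SWEET4, the hexose transporter known for its role in seed filling, stood at 119, 115 and 109 CPM in the ZH11 libraries, at 364, 389 and 364 CPM in those of OE1 and at 604, 630 and 628 CPM in those of OE2. The groups did not overlap, and every OE2 library lay above every OE1 library. The log2 change against ZH11 was 1.70 in OE1 (SE 0.04, 3.25-fold, edgeR adjusted p = 4.03e-28) and 2.44 in OE2 (SE 0.04, 5.43-fold, adjusted p = 1.26e-32). The lines differed by −0.74 (OE1 minus OE2 on the log2 scale, SE 0.04, adjusted p = 1.19e-17). Of all tested genes, 88% had a lower change than SWEET4 in OE1 and 89.8% in OE2.

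SWEET15, a sucrose transporter that acts with SWEET11 in grain filling, was at 25.7, 26.2 and 24.3 CPM in ZH11 libraries, and OE1 libraries had 64.3, 64.4 and 60.1 CPM and OE2 libraries 82.9, 77.2 and 76.1 CPM. Again no library of one group fell within the range of another. It rose by a log2 change of 1.31 in OE1 (SE 0.06, adjusted p = 8.44e-20) and 1.63 in OE2 (SE 0.06, adjusted p = 8.82e-23), with edgeR. The lines differed by −0.32 (OE1 minus OE2, SE 0.06, adjusted p = 9.76e-06), a smaller gap than that of SWEET4.

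SWEET11, which exports sucrose towards the filial tissue in young rice grains, had 642, 614 and 625 CPM in ZH11 libraries, and 631, 627 and 615 CPM in OE1 ones and 617, 653 and 656 CPM in OE2 ones. The ranges of the groups overlapped. Its log2 change was −0.01 in OE1 (95% interval −0.08 to 0.07, edgeR adjusted p = 0.88) and 0.03 in OE2 (95% interval −0.04 to 0.11, adjusted p = 0.407). Behind these values lay mean counts of 29200 for ZH11, 20100 for OE1 and 20300 for OE2. The lines had fewer SWEET11 counts than ZH11, and with library totals in place of TMM factors the log2 change of OE1 was −0.52 (adjusted p = 8.1e-16) and that of OE2 −0.53 (adjusted p = 2.65e-16). The level of SWEET11 thus held steady only relative to the bulk of genes.

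SWEET13, a sucrose transporter known from rice leaf phloem, was at 13.4, 15.1 and 16.6 CPM in the ZH11 libraries, at 10.3, 8.81 and 11.0 CPM in those of OE1 and at 25.7, 29.0 and 33.5 CPM in those of OE2. OE1 lay wholly below ZH11 and OE2 wholly above it. The log2 change was −0.58 in OE1 (SE 0.11, edgeR adjusted p = 2.23e-05) and 0.97 in OE2 (SE 0.10, adjusted p = 3.69e-10). The direct comparison of the lines gave −1.55 for OE1 minus OE2 (SE 0.11, adjusted p = 2.05e-14). Both directions held with library totals, at −1.09 in OE1 and 0.40 in OE2. Averaged over the lines the change was 0.19 and did not pass (SE 0.09, adjusted p = 0.0623).

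SWEET14, a sucrose transporter reported to work beside SWEET11 in the rice caryopsis, reached 17.9, 12.8 and 14.0 CPM in ZH11 libraries, whereas OE1 libraries had 6.43, 5.38 and 6.39 CPM and OE2 libraries 1.61, 1.88 and 2.01 CPM. All 3 groups were separate, in the reverse order to SWEET4 and SWEET15. It fell by 1.30 on the log2 scale in OE1 (SE 0.15, edgeR adjusted p = 1.68e-09) and by 3.02 in OE2 (SE 0.17, adjusted p = 1.61e-17), or 2.46-fold and 8.13-fold. The lines differed by 1.73 (OE1 minus OE2, SE 0.18, adjusted p = 2.05e-10). In OE2 these values rest on a mean of 58.0 counts per library, where counting alone gives a coefficient of variation of 13.1%, while in ZH11 the libraries varied by 17.8% against 3.79% from counting. These counting values take each count as independent, and would be larger if both mates of a read pair were counted. ZH11 replicate 1 was the highest library, and without it the log2 change was still −1.15 in OE1 and −2.87 in OE2.

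SWEET12, the remaining sucrose-clade gene, had 2 counts in OE1 replicate 1 and 0 in the other 8 libraries. It did not have enough counts to be tested. The 0 of 108807340 counts in ZH11 allow a level of up to 0.0215 CPM, and the 0 of 109666881 in OE2 up to 0.0315 CPM, at 3 counts over the group and for counting error only. If both mates of a read pair were counted, which an excess of even numbers among low counts in these libraries leaves possible, these limits would be higher. No fold change is given, since all groups were at or under that floor.

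**Figure D2:**
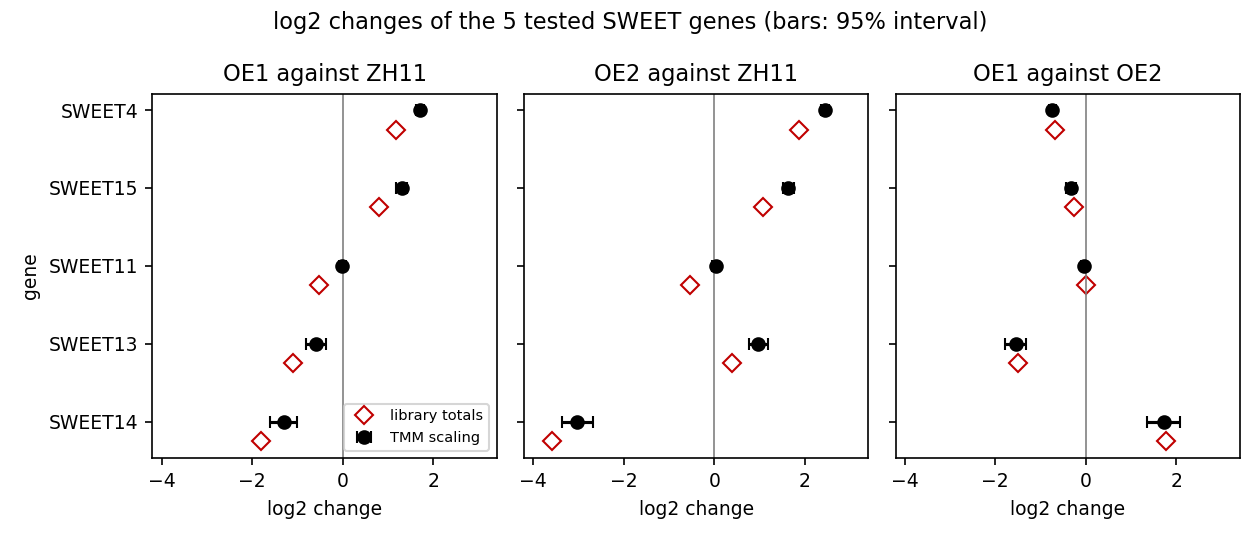
Log2 change (x axis) of the 5 tested SWEET genes in OE1 against ZH11, OE2 against ZH11 and OE1 against OE2. Black points are TMM-scaled values with 95% intervals, and open diamonds are values from library totals, which shift each gene of the first 2 panels to the left and take SWEET11 from −0.01 to −0.52 in OE1.

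Ratios of reads between SWEET genes within a library do not depend on how libraries are scaled. ZH11 grains had 0.182 ± 0.00635 SWEET4 reads per SWEET11 read (SD, n = 3), OE1 grains 0.596 ± 0.0219 and OE2 grains 0.967 ± 0.0108. The library ranges of this ratio were 0.175 to 0.187, 0.577 to 0.620 and 0.957 to 0.979 and did not overlap. SWEET13 and SWEET14 had similar read numbers in ZH11, with 1.04 ± 0.249 SWEET13 reads per SWEET14 read, and parted in the lines, to 1.65 ± 0.0568 in OE1 and 16.0 ± 0.640 in OE2. SWEET11 reads per SWEET15 read numbered 24.7 ± 1.18 in ZH11 grains, 9.93 ± 0.268 in OE1 grains and 8.17 ± 0.637 in OE2 grains. These ratios compare groups and not levels between genes, since transcript lengths were not used here.

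Of the reads on the 6 genes together, SWEET11 took 78.7% ± 0.420 in ZH11 grains, 58.0% ± 0.686 in OE1 grains and 46.8% ± 0.356 in OE2 grains (SD, n = 3). SWEET4 took 14.4% ± 0.425, 34.6% ± 0.860 and 45.2% ± 0.199 in the same order. The share of SWEET15 was 3.19% ± 0.142, 5.85% ± 0.146 and 5.74% ± 0.422, so that both lines lay above ZH11 while their own ranges (5.69% to 5.97% and 5.45% to 6.23%) overlapped. SWEET14 shrank from 1.87% ± 0.287 to 0.565% ± 0.0634 and 0.133% ± 0.0115. SWEET13 took 1.89% ± 0.232, 0.935% ± 0.119 and 2.14% ± 0.238, and the ranges of ZH11 (1.64% to 2.1%) and OE2 (1.93% to 2.4%) overlapped. The summed level of the 6 genes was 797 ± 18.6 CPM for ZH11, 1080 ± 19.2 for OE1 and 1370 ± 36.5 for OE2. With library totals the libraries ranged from 1000 to 1040, from 950 to 978 and from 1160 to 1210 CPM, and OE1 then lay below ZH11, while OE2 lay above it under both scalings.

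**Figure D3:**
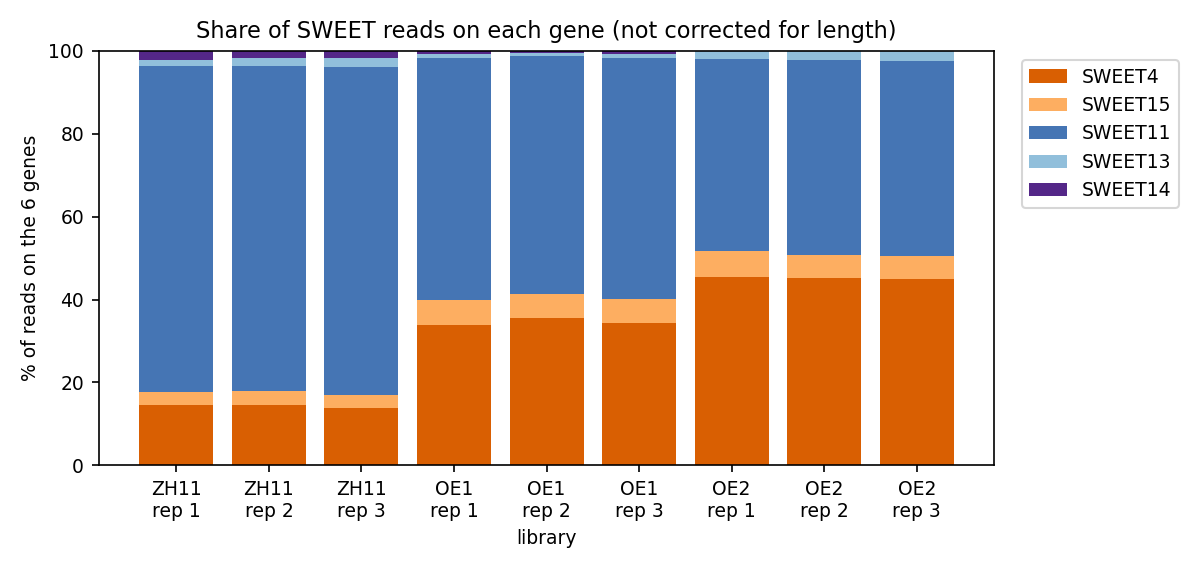
Percentage of the reads on the 6 SWEET genes that fell on each gene (y axis, 0 to 100%, not corrected for transcript length) in each of the 9 libraries. SWEET11 holds most of the reads in ZH11 (78.7% on average) and about the same share as SWEET4 in OE2 (46.8% and 45.2%). SWEET12, with 2 reads in all, is not drawn.

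Among themselves, SWEET4 and SWEET15 had the most similar patterns. The Euclidean distance between their log2 CPM values over the 9 libraries, each centred on the gene's own mean, was 1.01, and Pearson's r was 0.991. The most distant pair was SWEET4 and SWEET14, at 6.66 (r = −0.944). These values describe 9 libraries in 3 tight groups that share their library scaling. Among 16301 tested genes with a mean of at least 5 CPM, the nearest to SWEET4 were LOC_Os08g35740 (distance 0.119), with 57.1 ± 1.20 CPM in ZH11 grains, 182 ± 2.94 in OE1 grains and 311 ± 11.3 in OE2 grains, and LOC_Os12g04240 (distance 0.144). The nearest to SWEET14 lay farther off, with LOC_Os05g42250 at 0.455 and LOC_Os12g36810 at 0.495. LOC_Os05g42250 fell from 172 ± 6.92 CPM to 70.2 ± 1.63 and 21.0 ± 0.315. The files pair no names with these 4 identifiers. Of the 29 other SWEET and sugar route genes tested, the nearest to SWEET15 was SUT4, a sucrose transporter (distance 0.779), and the nearest to SWEET4 was the monosaccharide transporter gene MST3 (distance 1.25). For SWEET11 it was the sucrose transporter gene SUT5 (distance 0.51, r = 0.016). The genes nearest to SWEET13 and SWEET14 have symbols not found in the reference and are not named.

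Of 15 further SWEET genes, 6 had symbols not found in RefSeq and 2 had symbols that RefSeq gives to the same gene. Too few counts left 7 of the 15 untested. Of the other 8, 2 rose, 1 fell and 5 did not pass in OE1, and 4 rose, 3 fell and 1 did not pass in OE2. Over all tested genes 33.9% rose and 33.8% fell in OE1, where 67.7% were called. In OE2 38.4% rose and 36% fell, and 74.4% were called. The share called among these 8 was below the background in OE1. The 5 that did not pass there had means of 5 to 22.3 counts per OE1 library, and such low counts limit what can be called. With library totals 2 rose and 3 fell in OE1, and 4 rose and 4 fell in OE2, where 25.9% and 29.8% of the calls over all genes were higher. SWEET2A moved in opposite directions, like SWEET13 but the other way round: 11.3 ± 1.80 CPM in ZH11 grains, 42.4 ± 0.925 in those of OE1 and 7.47 ± 0.612 in those of OE2 (log2 changes 1.91 and −0.60, edgeR adjusted p = 1.47e-18 and 9.09e-06). SWEET1A fell from 12.1 ± 0.572 CPM to 4.32 ± 0.293 and 4.55 ± 0.689. SWEET2B rose from 0.169 ± 0.0773 CPM to 2.35 ± 0.638 and 1.61 ± 0.400, a change that starts from a mean of 8 counts per ZH11 library. SWEET5 stood at 0.0487 ± 0.0436, 0.156 ± 0.0316 and 1.19 ± 0.251 CPM, and rose in OE2 (log2 change 4.49, SE 0.77, adjusted p = 3.34e-06) but did not pass in OE1 (1.58, SE 0.89, adjusted p = 0.115). Its changes rest on means of 2.33 counts per ZH11 library and 5 per OE1 library, so their size is poorly known. OE1 lay below OE2 by −2.91 (SE 0.69, adjusted p = 0.000428).

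Around the SWEETs, 23 genes for sucrose and hexose uptake and sucrose cleavage were listed and 21 were tested. In OE1 12 rose, 6 fell and 3 did not pass, and in OE2 11 rose, 7 fell and 3 did not pass, beside 67.7% and 74.4% of all tested genes called in either direction. Over all tested genes 33.9% rose and 33.8% fell in OE1, and 38.4% and 36% in OE2. For 6 of the 23 listed genes the symbol was not found in RefSeq, and they are not named. Among them was the listed gene of smallest adjusted p in the mean of both lines (edgeR adjusted p = 6.39e-40). Its log2 change was 4.61 in OE1 and 5.42 in OE2, so the genes named below are not the strongest of the list. With library totals the counts were 6 higher and 9 lower in OE1, and 10 and 9 in OE2, while over all genes 25.9% and 29.8% of the calls were higher. SUT4 rose from 42.0 ± 1.52 CPM (ZH11) to 144 ± 5.54 (OE1) and 122 ± 2.78 (OE2), and the lines differed by 0.24 (OE1 minus OE2, log2, SE 0.05, edgeR adjusted p = 4.71e-05), the reverse of SWEET4. The cell wall invertase gene CIN2, which splits sucrose outside the cell, fell from 321 ± 9.17 to 157 ± 6.45 and 127 ± 2.97 CPM. CIN1, another cell wall invertase gene, stood at 14.0 ± 0.527, 17.4 ± 2.51 and 195 ± 1.45 CPM. Its log2 change in OE1 was 0.31 (SE 0.08, adjusted p = 0.000431) and became −0.19 with library totals (adjusted p = 0.0192). SUS4, a sucrose synthase gene, rose from 30.6 ± 0.679 to 60.8 ± 2.21 and 56.8 ± 1.93 CPM. MST3 rose from 10.3 ± 1.35 to 17.1 ± 1.61 and 35.6 ± 3.30 CPM, although its change in OE1 did not pass with library totals (log2 change 0.22, adjusted p = 0.0524).

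**Figure D4:**
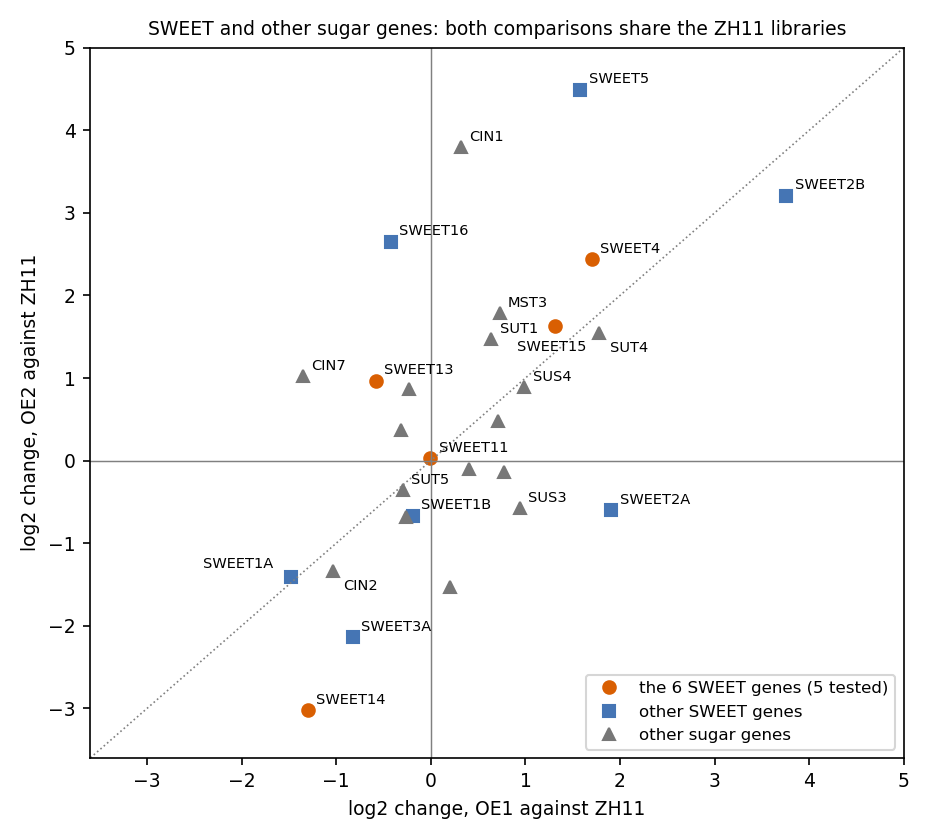
Log2 change in OE2 (y axis) against that in OE1 (x axis), both against the same ZH11 libraries, for the 5 tested SWEET genes (circles) and for other SWEET (squares) and sugar route genes (triangles) with a symbol found in the reference. The dotted line marks equal change. SWEET4 and SWEET15 lie in the upper right, SWEET14 in the lower left, SWEET13 in the upper left and SWEET2A in the lower right. TMM-scaled values are shown, and library totals move all points down and to the left.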

How the data were processed

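The grain table holds raw counts of reads per gene in 9 libraries, as the authors deposited them. Per the submitters' processing notes, the tools were BWA, HISAT2, featureCounts and DESeq, with no version or role. The strand setting, genome build and annotation are not stated in those notes, so reads shared by similar SWEET genes, or with an antisense partner, could not be told apart. Of counts from 1 to 20, 64.9% to 68.1% were even, against 49.4% to 50.6% above 100, as happens when both mates of a read pair add to a count. The seedling m5C peak lists were not used here.

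The counts were fitted with edgeR 4.0.16 (R 4.3.3): the default expression filter on groups (24765 genes kept, 14452 not), TMM factors, and a robust quasi-likelihood fit on all 9 libraries with group as its only factor. Tests were two-sided. SEs come from the log2 change and its F statistic. The fit was tested on simulated data. Libraries of a group differed by a chi-square per degree of freedom of 3.96 to 6.09, so none were counted as 1. Libraries with the same replicate number did not deviate together. Alternatives were RLE factors, library totals, no filter, DESeq2 1.42.0, a replicate block, halved counts, fits on 6 libraries and leaving out each library.

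The 6 genes and all lists were chosen with earlier results of these data known. Of 68 identifier and symbol pairs, 47 were found in RefSeq (assembly ASM3414082v1) on the stated chromosome and in the same order, and others are not named. Besides the 6 genes, the up to 4 genes of smallest adjusted p in the mean of both lines were named per list, among those with a symbol so found. The nearest genes were named as described. Marker lists for anther (8.04 to 10.1 CPM summed in ZH11, 8.33 to 10.6 in OE1, 4.69 to 5.64 in OE2), embryo (11.1 to 12.6, 9.17 to 12.5 and 13.8 to 17.8) and nucellus (MADS29 alone, 121 to 124, 95.0 to 106 and 124 to 142) were also summed. In OE1 3 of the 4 embryo genes rose and 1 fell, OSH1 (10.4 CPM in ZH11, 5.07 in OE1). In OE2 1 embryo gene rose and 3 did not pass. Of the 3 anther genes tested, 1 rose and 2 fell in OE1, and all 3 fell in OE2. Over all tested genes 33.9% rose and 33.8% fell in OE1, and 38.4% and 36% in OE2, so such small counts say little. MADS29 fell in OE1 and did not pass in OE2, but with library totals it was lower in both lines (log2 changes −0.78 and −0.47). With library totals 2 embryo genes were higher and 1 lower in OE1, 1 and 1 in OE2, and no anther gene was higher. Under that scaling 25.9% of the calls over all genes were higher in OE1 and 29.8% in OE2.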

Additional observations from a re-analysis of the deposited data

Results flagged for a closer look

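For 4 of the 5 tested SWEET genes the change from ZH11 differed between the lines by the direct edgeR test. The log2 change in OE1 minus that in OE2 was −0.74 for SWEET4, −1.55 for SWEET13, 1.73 for SWEET14 and −0.32 for SWEET15. SWEET13 differed in sign, and the other 3 went the same way in both lines, farther in OE2. Between the lines 65.2% of all tested genes differed.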

How the results depend on the processing

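Over the 5 tested genes and 4 comparisons, 294 of 310 recomputed values kept their direction and their side of the threshold, among them all values of SWEET4, SWEET14 and SWEET15. Library totals in place of TMM factors gave 3 genes lower in the mean of both lines (1 with TMM), 3 lower in OE1 (2 with TMM) and 2 lower in OE2 (1 with TMM), and took the share of higher calls over all genes from 50.3% to 26.8%, from 50.1% to 25.9% in OE1 and from 51.6% to 29.8% in OE2. SWEET11 then changed by −0.52 in the mean of both lines, −0.52 in OE1, −0.53 in OE2 and 0.01 between the lines, and SWEET13 by −0.34 in the mean of both lines. SWEET11 otherwise crossed 0 only within ±0.01: 0.00 in OE1 with RLE factors or DESeq2, −0.01 in OE2 with 6 libraries, and 0.00 or 0.01 without ZH11 replicate 1 or OE1 replicate 3 in OE1, or without ZH11 replicate 2 in the mean. With a library left out it ran from 0.00 to 0.03 in the mean and from −0.02 to 0.01 in OE1. The averaged change of SWEET13 ran from 0.11 to 0.27 with a library left out. It passed without OE1 replicate 2 (0.23, adjusted p = 0.0254), OE2 replicate 1 (0.24, adjusted p = 0.0238) or ZH11 replicate 3 (0.27, adjusted p = 0.0285) and with halved counts (adjusted p = 0.0484). Same-numbered libraries correlated at −0.016 to 0.035 in their deviations, so the numbers do not pair them. With the replicate block SWEET13 passed (0.19, adjusted p = 0.0436) and no other call changed. The causes were not tested. Depth limits SWEET12 and, in OE2, SWEET14.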
